A study of Mus musculus with 64 samples.

Results

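β-catenin occupancy was kept in all 4 conditions at 581 of 12607 merged β-catenin sites (4.61%). β-catenin had been mapped by ChIP-seq, the sequencing of chromatin recovered with an antibody, in 12 libraries of mouse embryonic stem cells and their derivatives. Each list was shortened to its strongest peaks by deposited fold, as many as the shortest list held, and peaks overlapping by 1 bp or more became a single site. For a site to count as kept, 2 or 3 of the 3 libraries of each condition had to call it. The kept sites were thus chosen by their β-catenin peaks, and all β-catenin values below are descriptions without a test.

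The cells came from the XY HM1 TetON line, which served as wild type (WT), and from a SOX2-TetON line derived from it. Naive ESC were WT cells in 2i medium, which holds the GSK3 inhibitor CHIR99021 and the MEK inhibitor PD0325901. For caudal epiblast-like cells (CEpiLC), WT cells were differentiated to 72 h with bFGF and LGK974, an inhibitor of WNT secretion, with CHIR99021 added for the last day. SOX2-TetON cells lack functional endogenous Sox2 and carry a doxycycline-dependent Sox2 transgene at the HPRT locus, with the rtTA activator at Rosa26. They were differentiated in the same way, either with doxycycline at 1 µg/ml (SOX2-ON) or without it (SOX2-OFF), and came from drug-resistant clones picked after editing. All 4 conditions therefore contained CHIR99021, which stabilises β-catenin without a WNT ligand. Naive ESC and SOX2-ON are called high SOX2 here, CEpiLC and SOX2-OFF low SOX2. In the WT pair the SOX2 level cannot be told apart from the change of medium and cell state. SOX2, LEF1, TCF7L1 and TCF7L2, the last 2 labelled TCF3 and TCF4, had been mapped in the same conditions, so that 60 peak lists were available, 3 biological replicates per protein and condition. Peak lists hold no RNA, so cell identity was not checked against marker expression.

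β-catenin does not bind DNA itself. It enters the nucleus when the WNT pathway stops its degradation, and it is brought to chromatin by the DNA-binding proteins of the TCF/LEF family, which recognise a short sequence close to CTTTGAA or CTTTGAT. TCF7L1 acts mostly as a repressor in embryonic stem cells, whereas LEF1 and TCF7L2 can activate with β-catenin. SOX2 is a related HMG-box factor that maintains pluripotent and neural progenitors. In the caudal epiblast, WNT signals induce genes such as Cdx2 and the posterior Hox genes that build the trunk.

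The sequences at the centre of 8 kept sites are shown because they hold, or lack, the TCF/LEF sequence on which the sites differ from the others. Each run is 200 bp of GRCm38 (mm10), read 5′ to 3′ on the + strand, with CTTTGAA or CTTTGAT or their reverse complements in capitals. The sites are named by the nearest protein-coding start. Of these, 3 were among the strongest kept sites and lay near Lrmda (chr14:22144087-22144286, intron), Foxb1 (chr9:69668810-69669009, intergenic) and Epha1 (chr6:42380855-42381054, exonic). The other 5 lay at genes of the lists described below. They were upstream of Sp5 (chr2:70443761-70443960, intergenic), upstream of Lef1 (chr3:131105992-131106191, intergenic), in an intron of Cdx2 (chr5:147304343-147304542), at the promoter of Pou5f1 (chr17:35505034-35505233) and upstream of Nodal (chr10:61406091-61406290, intergenic).
Lrmda: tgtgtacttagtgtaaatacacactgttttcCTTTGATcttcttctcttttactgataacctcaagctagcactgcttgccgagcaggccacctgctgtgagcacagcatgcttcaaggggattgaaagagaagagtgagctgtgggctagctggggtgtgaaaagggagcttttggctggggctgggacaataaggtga
Foxb1: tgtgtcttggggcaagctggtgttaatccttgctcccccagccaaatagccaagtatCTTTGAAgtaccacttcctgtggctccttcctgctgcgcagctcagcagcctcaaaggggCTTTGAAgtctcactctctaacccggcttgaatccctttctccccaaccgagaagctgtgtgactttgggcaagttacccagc
Sp5: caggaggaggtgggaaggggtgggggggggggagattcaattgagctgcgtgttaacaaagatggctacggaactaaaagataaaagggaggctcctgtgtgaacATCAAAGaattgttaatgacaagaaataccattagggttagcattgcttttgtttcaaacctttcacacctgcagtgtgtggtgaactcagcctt
Lef1: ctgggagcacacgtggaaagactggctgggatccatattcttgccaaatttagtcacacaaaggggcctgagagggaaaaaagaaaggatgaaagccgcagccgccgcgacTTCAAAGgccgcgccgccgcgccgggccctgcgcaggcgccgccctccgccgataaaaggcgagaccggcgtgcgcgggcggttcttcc
Cdx2: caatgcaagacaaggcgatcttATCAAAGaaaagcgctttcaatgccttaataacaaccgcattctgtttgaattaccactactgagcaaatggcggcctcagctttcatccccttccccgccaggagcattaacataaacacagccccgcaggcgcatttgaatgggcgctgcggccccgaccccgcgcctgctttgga
Pou5f1: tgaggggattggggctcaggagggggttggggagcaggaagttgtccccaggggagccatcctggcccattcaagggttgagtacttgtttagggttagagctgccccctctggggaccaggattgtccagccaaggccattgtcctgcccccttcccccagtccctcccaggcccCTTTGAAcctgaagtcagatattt
Nodal: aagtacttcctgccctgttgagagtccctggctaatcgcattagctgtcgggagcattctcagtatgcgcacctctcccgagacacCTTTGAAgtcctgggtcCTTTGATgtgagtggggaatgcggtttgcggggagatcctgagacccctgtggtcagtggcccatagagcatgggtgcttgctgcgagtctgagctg
Epha1: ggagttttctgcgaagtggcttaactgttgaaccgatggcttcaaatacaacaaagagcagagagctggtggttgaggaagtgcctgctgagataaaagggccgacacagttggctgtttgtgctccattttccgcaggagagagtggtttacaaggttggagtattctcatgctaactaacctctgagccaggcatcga
The Foxb1 and Nodal windows held 2 matches each, the Epha1 window held 0, and each of the other 5 held 1.

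The TCF sequence was found within 100 bp of the centre at 393 of 581 kept sites (67.6%, 95% exact binomial interval 63.7 to 71.4%, counting error only). It was found at 42.5% of the other β-catenin sites and in 8.18% of windows of the same length 5000 bp away from the kept sites. Kept sites with at least 2 matches made up 20.7%, against 7.53% of other sites and 0.258% of the distant windows. The matches lay near the centre. In the 20 bp bin centred 20 bp before it there were 18.6 matches per 100 kept sites and 7.80 per 100 other sites. When the kept sites were ranked by median β-catenin strength into 4 groups of 145 or 146, the share with a TCF sequence was 61.0% in the weakest group, then 64.1%, 67.6% and 77.9% in the strongest. These letters were searched on both strands. The TCF and SOX sequences begin alike but cannot match at the same bases.

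**Figure D1:**
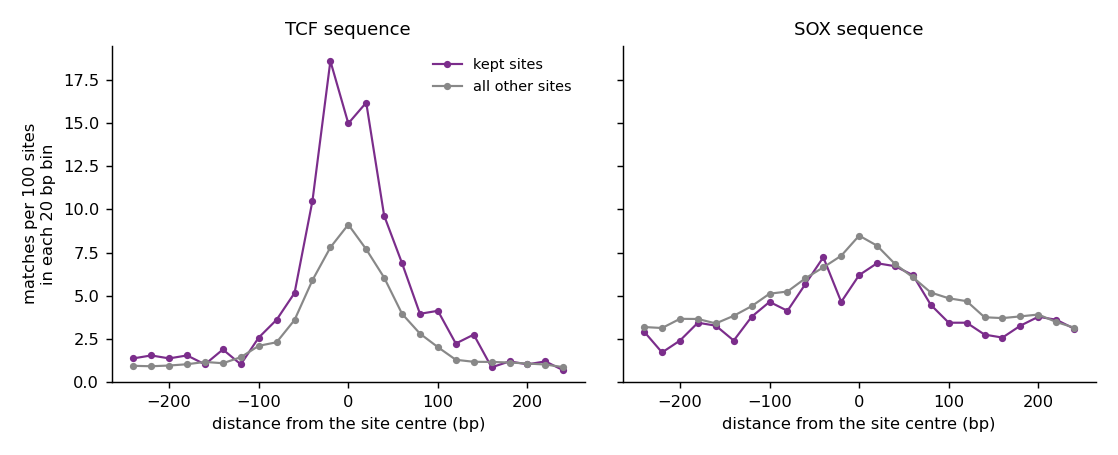
Matches per 100 sites of the TCF sequence (left) and the SOX sequence (right) in bins of 20 bp, against the distance from the site centre in bp, for the kept β-catenin sites and all other β-catenin sites. TCF matches of the kept sites peaked at 18.6 per 100 sites close to the centre, against at most 9.12 at other sites, whereas the SOX curves lay close together.

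The SOX sequence (CATTGT or CTTTGT) showed no such excess at kept sites. It was present at 42.2% of kept sites and 44.5% of other sites, both above the 26.8% of distant windows. The octamer sequence ATGCAAA, which POU factors such as OCT4 bind, was present at 12.05% of kept sites, 8.80% of other sites and 3.70% of distant windows. The GC-box GGGCGG, bound by KLF and SP factors, stood at 12.4%, 8.86% and 3.18%. The CDX sequence (TTTATTG or TTTATGG) stood at 4.65% of kept sites, 6.63% of other sites and 8.18% of distant windows. The T/BRA sequence GGTGTG stood at 11.9%, 15.7% and 13.2%. Kept sites had a median GC content of 49.5%, against 47.0% at other sites and 44.0% in distant windows, so base composition differed between the sets compared.

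Kept sites were wide and mostly distal. Their median width was 1073 bp (340 to 3993 bp), against 511 bp for the other sites. In the basic GENCODE annotation, 53 of 581 (9.12%, exact interval 6.91 to 11.8%) had their centre within 1000 bp of a transcript start, 236 lay in introns, 10 in exons and 282 between genes. At other sites the promoter share was 9.62%, inside that interval. The median distance to the nearest protein-coding start was 31206 bp for kept sites and 33760 bp for other sites. Within 10 kb of another kept site lay 41 members (7.06%). The nearest coding gene was Tle3 for 4 kept sites, and genes with 3 each included Sp5, Tnfrsf19, Frem2, Pappa and Zfp677. Tle3 encodes a Groucho-family co-repressor that TCF proteins recruit when β-catenin is absent.

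The strength of a peak was expressed as its rank percentile, which is 100 for the strongest peak of the equal-length list and 0 where the list had no peak at the site. The kept sites were often among the strongest β-catenin peaks. They held 15.8 to 17.1% of the peaks of each shortened list but 54 to 82 of its 100 strongest. A peak was present in 12 of 12 libraries at 332 kept sites and in 11 at 163, and only 86 had fewer: 64 had 10, 21 had 9 and 1 had 8. Of 6972 pairs of kept site and library, 358 (5.13%) had no peak in the shortened list, and in 316 of these (88.3%) the longer deposited list did have one. The list of SOX2-OFF replicate 2 was the shortest and was used whole, so its 34 gaps could not be looked up, and its weakest peak had a fold of 2.01, against 7.21 to 17.98 in the other 11 lists. Without that library 547 sites met the rule.

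**Figure D2:**
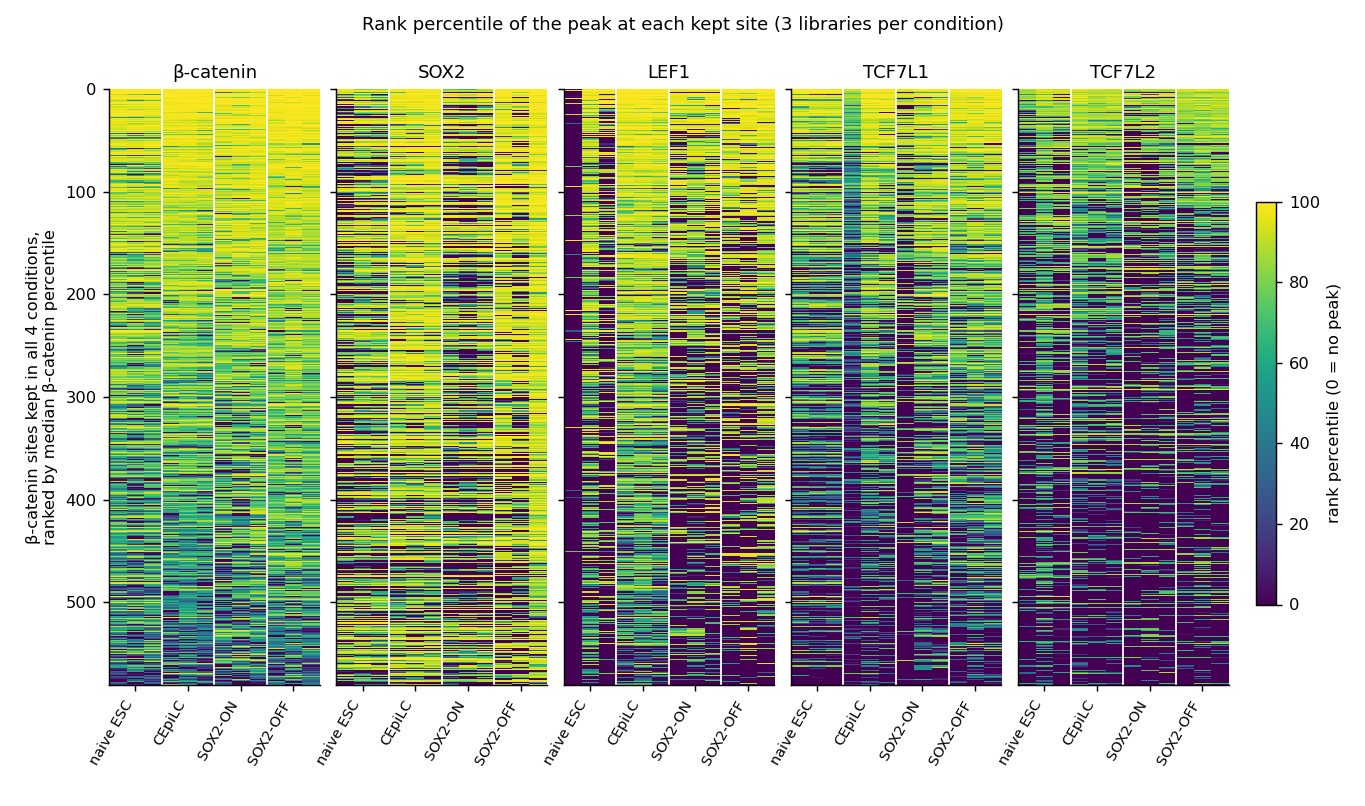
Rank percentile (colour, 0 = no peak) of the peak at each of the 581 kept sites (rows, ordered by median β-catenin percentile) in the 12 libraries of each protein (columns, 3 per condition). β-catenin is present nearly throughout, whereas SOX2, LEF1, TCF7L1 and TCF7L2 show gaps that grow in number toward the weaker β-catenin sites, least so for SOX2.

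Across the conditions the typical kept site had a similar β-catenin rank. The median percentile over the 581 sites was 73.0 to 75.9 in the naive ESC libraries, 73.7 to 78.5 in CEpiLC, then 78.0 to 83.2 in SOX2-ON and 80.0 to 84.2 in SOX2-OFF. Being kept did not mean being equally strong. The difference between a site's highest and lowest condition mean had a median of 40.4 percentile points, and it ran from 0.166 to 89.6. It was under 10 points at 65 sites and over 50 points at 207. At 92 kept sites all 6 high SOX2 libraries lay above, or all below, the 6 low SOX2 libraries, 37 above and 55 below. Over all 12607 sites that share was 5.89%. Nothing is read from this comparison, because the rule used the same libraries.

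The strongest kept site over its weakest library lay in an intron 124339 bp from the coding start of Lrmda (chr14:22143283-22144992). Its percentile was 99.7 to 100.0 in naive ESC and 99.9 to 100.0 in CEpiLC, then 99.9 to 100.0 in SOX2-ON and 99.3 to 99.7 in SOX2-OFF, so every library placed it in its top 1%. The deposited fold there ran from 43.4 in SOX2-OFF replicate 2 to 181.1 in CEpiLC replicate 3. A site 92030 bp from Foxb1, a forkhead gene of the neural tube, followed (chr9:69667918-69671799), with a lowest percentile of 99.1 and folds from 62.1 to 250.9. It was the strongest peak of all 3 SOX2-OFF libraries. The other 10 of the 12 strongest kept sites, among them those nearest 2510009E07Rik, Ube2d2a, Efr3a, Mapkap1, Pappa, Epha1, Sp4, Lipc and Cdx1, had lowest percentiles from 95.3 to 98.8. Of the 12, only the Epha1 site had no TCF sequence within 100 bp of its centre. The Sp4 site lay 228859 bp from the Sp4 start, at the start of another annotated transcript. Of the 12, 11 met the same requirement, peaks in 2 or 3 of 3 libraries of each condition, for SOX2, LEF1, TCF7L1 and TCF7L2, and the Epha1 site had 3 of these 4 proteins.

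At the other end, the rule separated sites that hardly differed. The 3 members just inside lay 38643 bp from the start of Axin2, 56165 bp upstream of Nkain2 and 7343 bp upstream of Mgea5, where the decisive peak ranked 3418, 3415 and 3410 in its list. The 3 sites just outside lay nearest Was, Adgrl3 and Egfem1, where it ranked 3437, 3447 and 3454. At the Axin2 site the β-catenin percentile was 77.3, 82.3 and 52.6 in naive ESC and 40.3, 61.4 and 62.2 in CEpiLC, then 20.2, 0.18 and 0 in SOX2-ON and 69.7, 51.9 and 72.2 in SOX2-OFF. The 3 SOX2-ON libraries were the lowest of the 12.

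Genes of the WNT pathway and of early development were counted in 7 lists of 97 genes, where a gene was hit if a kept site lay in its body or the 10 kb upstream, or had it as nearest coding start. Kept sites hit 24 of the 97 genes (24.7%), against 2.83% of 21951 protein-coding genes, while 91 of the 97 were hit by at least 1 of the 12607 sites. The lists were drawn up with results of these data known, so these counts are descriptions. Among 16 genes of WNT feedback and direct WNT response, 4 were hit: Sp5 and Tnfrsf19 with 3 kept sites each, and Axin2 and Znrf3 with 2 each. Of the 4 TCF and LEF genes, Lef1 and Tcf7l2 were hit. Of 12 WNT ligands and receptors, 6 were hit, namely the ligands Wnt5b and Wnt8a, the receptors Fzd2, Fzd7 and Fzd10, and Rspo3, a secreted enhancer of WNT signalling. Of 18 genes of the caudal epiblast, primitive streak and mesoderm, Cdx1, Cdx2 and Eomes were hit. Of 21 pluripotency genes, Pou5f1, Klf5, Prdm14, Sall4 and Lin28a were hit, of 12 genes of primed epiblast and neural cells Sox3 alone, and of 14 feedback genes of Nodal, BMP and FGF signalling Nodal, Id3 and Dusp6. A TCF sequence was present at 24 of the 31 kept sites of listed genes (77.4%).

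Sp5 encodes a zinc-finger repressor that WNT induces directly. At the Sp5 promoter (chr2:70474077-70476662), which held 3 TCF sequences, the β-catenin percentile was 96.5, 89.02 and 94.8 in naive ESC and 99.7, 99.6 and 98.8 in CEpiLC, then 99.8, 98.7 and 99.9 in SOX2-ON and 99.04, 99.6 and 99.3 in SOX2-OFF. All 12 libraries were high, and the 3 naive ESC libraries were the lowest. The site 31062 bp upstream (chr2:70442944-70445081) ran from 92.1 to 98.98. The Axin2 promoter (chr11:108919673-108923665), which drives a scaffold of the β-catenin destruction complex, had a median percentile of 92.99 and a lowest of 65.8.

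At the Cdx2 intron (chr5:147303677-147305639), in a homeobox gene that specifies caudal identity, the β-catenin percentile was 99.2, 99.5 and 99.1 in naive ESC and 90.2, 90.2 and 92.5 in CEpiLC, then 99.3, 99.2 and 99.6 in SOX2-ON and 84.1, 78.3 and 88.2 in SOX2-OFF. The 6 high SOX2 libraries all lay above the 6 low SOX2 libraries. Cdx1, its paralogue, stayed between 95.3 and 99.4 (chr18:61034376-61037208). At Lef1 (chr3:131105408-131106831, 4379 bp upstream) the percentile was 84.3, 85.3 and 83.7 in naive ESC and 86.9, 83.2 and 90.7 in CEpiLC, then 99.5, 98.3 and 98.6 in SOX2-ON and 91.2, 95.1 and 90.9 in SOX2-OFF. Here the 3 SOX2-ON libraries were the highest, and the WT conditions overlapped.

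Nodal encodes the TGF-β ligand that patterns the primitive streak. At the site 11781 bp upstream of it (chr10:61405452-61407085), β-catenin stood at 75.6, 65.0 and 89.8 in naive ESC and 81.1, 91.6 and 91.2 in CEpiLC, then 93.8, 92.6 and 95.2 in SOX2-ON and 94.0, 98.2 and 96.5 in SOX2-OFF. The TetON libraries all lay above the WT libraries. At the promoter of Pou5f1, which encodes OCT4 (chr17:35504692-35505635), the values were 73.5, 34.2 and 79.5 in naive ESC and 28.2, 60.2 and 0 in CEpiLC, then 87.03, 72.5 and 91.9 in SOX2-ON and 83.8, 70.4 and 81.5 in SOX2-OFF. CEpiLC was the weakest condition there, with overlap into naive ESC. The site at Id3, an inhibitor of bHLH factors, ran from 97.7 to 98.7 in naive ESC and from 34.8 to 58.6 in CEpiLC, and the ranges of SOX2-ON (83.1 to 96.0) and SOX2-OFF (46.0 to 76.8) did not overlap either. At the promoters of Wnt5b and Lin28a, the second of which encodes a regulator of let-7 processing, the β-catenin percentile ran from 66.3 to 94.7 and from 59.9 to 89.9. The Rspo3 site, 320090 bp from the start, ran from 63.6 to 99.4. The Tcf7l2 intron ran from 0 to 94.3 and the Sox3 site from 0 to 88.4, each absent from 1 library.

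**Figure D3:**
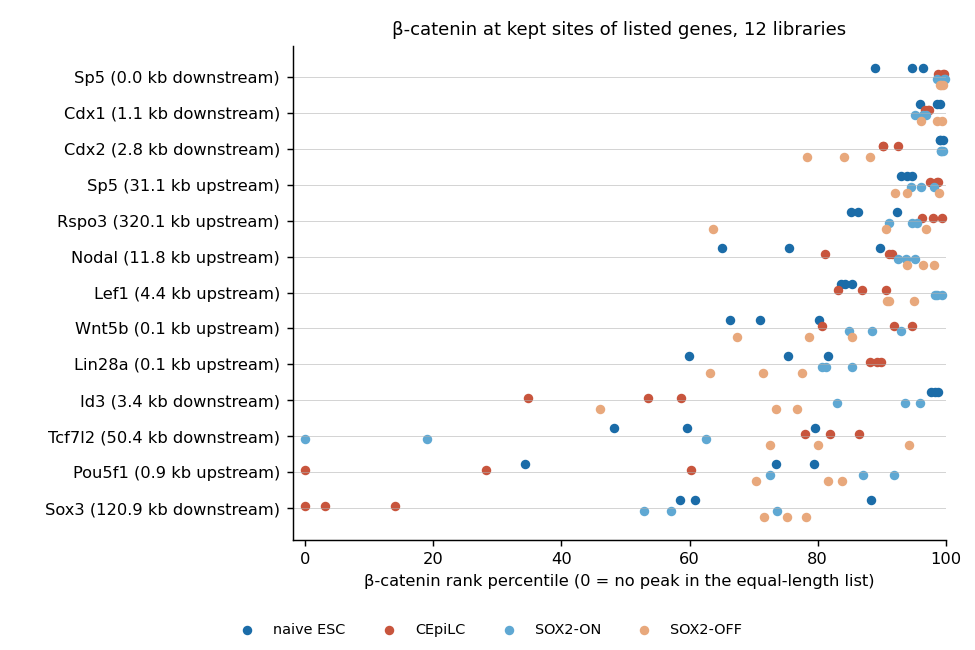
β-catenin rank percentile (x axis, 0 = no peak) at up to 2 kept sites per gene list, one point per library, coloured by condition, with the distance to the nearest coding start in kb. Sp5, Cdx1 and Lef1 keep all 12 libraries above 80, whereas Tcf7l2, Pou5f1 and Sox3 each have 1 library at 0.

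The other 4 proteins were far more frequent at kept sites than at the remaining β-catenin sites, in 48 of 48 libraries. A library was scored for a peak in its equal-length list (20000 peaks for SOX2, 4443 for LEF1, 1628 for TCF7L1 and 4134 for TCF7L2). SOX2 peaks covered 63.2 to 96.2% of kept sites and 20.0 to 40.1% of other sites. TCF7L1 covered 33.7 to 83.3% against 3.01 to 10.2%, LEF1 3.61 to 91.0% against 0.765 to 21.5%, and TCF7L2 31.0 to 68.7% against 3.82 to 10.4%. The kept sites are also the stronger and wider β-catenin sites, and the part that width and strength play in these shares was not tested. No kept site lay over a coding exon of Tfap2a, Tfap2c, Tcf7l1 or Tcf7l2 (0 for each), whereas 1 to 8 of the 12607 sites did.

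SOX2 had a peak at 72.3% ± 7.75 (SD, n = 3) of kept sites in naive ESC and 86.9% ± 2.84 in CEpiLC, then 68.4% ± 4.75 in SOX2-ON and 81.7% ± 13.3 in SOX2-OFF, n = 3 each. The 3 CEpiLC libraries lay above the 3 naive ESC libraries, and SOX2-OFF overlapped SOX2-ON. At other sites the means were 35.3%, 35.4%, 35.2% and 25.0% in the same order. Each SOX2 list held 20000 peaks whatever the SOX2 level, so the SOX2 shares do not measure the amount bound. The paper proposes that SOX2 found in SOX2-OFF is probably protein that persists at a low level once doxycycline is withdrawn. This was not tested here. LEF1 covered 39.1% ± 37.0 in naive ESC and 87.8% ± 3.05 in CEpiLC, then 54.7% ± 7.94 in SOX2-ON and 54.4% ± 7.98 in SOX2-OFF. The 3 naive ESC LEF1 libraries differed widely, at 3.61, 77.5 and 36.1%, and the lowest of them also shared only 0.765% of other sites. TCF7L1 covered 68.3% ± 1.86, 65.3% ± 9.13, 60.6% ± 23.3 and 79.5% ± 4.16, with SOX2-ON replicate 1 at 33.7%. TCF7L2 covered 47.1% ± 18.8, 56.6% ± 9.31, 38.3% ± 7.59 and 47.8% ± 7.77, where the CEpiLC libraries (48.9 to 66.95%) lay above the SOX2-ON libraries (31.0 to 46.1%) and the other pairs of conditions overlapped.

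**Figure D4:**
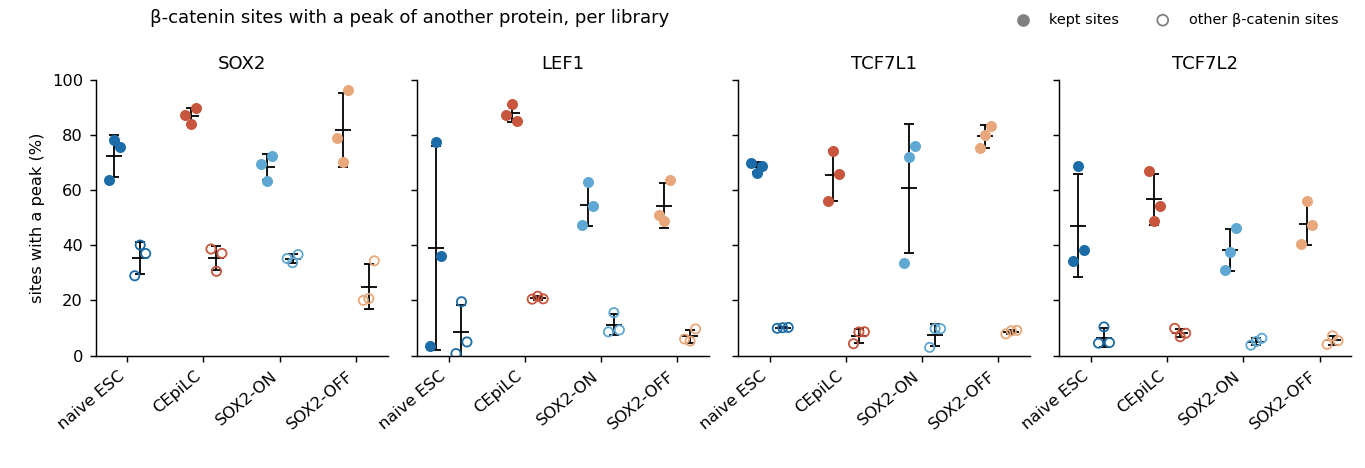
Share of the 581 kept sites (filled) and of the other β-catenin sites (open) with a peak of SOX2, LEF1, TCF7L1 or TCF7L2, in percent, one point per library, with the mean and SD of the 3 replicates as black bars. Kept sites lie above other sites in each of the 48 libraries, and LEF1 in naive ESC and TCF7L1 in SOX2-ON have the widest spread.

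Binding in at least 2 of 3 libraries of all 4 conditions, the requirement set for β-catenin, was met by SOX2 at 339 kept sites (58.3%), while 10.4% of all sites met it. TCF7L1 met it at 237 (40.8%, against 1.94% of all sites), TCF7L2 at 100 (17.2%, against 1.27%) and LEF1 at 96 (16.5%, against 0.976%). Outside the kept sites TCF7L1 met it at 8 sites of 12026. All 4 proteins met it at 29 kept sites and at 0 other sites, and none of the 4 did at 154 kept sites (26.5%). The strength of β-catenin went along with this count. The median β-catenin percentile was 63.9 at kept sites with 0 of the 4 proteins in all conditions, 70.1 with 1, 84.3 with 2, 92.8 with 3 and 97.3 with 4. The TCF sequence did not rise steadily with the count. It was present at 81.2% of the kept sites with 0 proteins, 53.2% with 1, 67.2% with 2, 73.8% with 3 and 86.2% with 4. With the complete deposited lists the shares were 81.6% for SOX2, 93.6% for TCF7L1, 77.8% for LEF1 and 50.4% for TCF7L2. Those lists held up to 991719 peaks (LEF1). The matching shares of other sites are not given, so these 4 values do not set kept sites apart.

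Every kept site had a LEF1, TCF7L1 or TCF7L2 peak in at least 1 of the 36 libraries of these proteins. The share of other sites with such a peak was not counted. A kept site carried a peak in a median of 30 of the 48 libraries, against 6 for other sites. Peaks in all 48 were found at 3 kept sites, including those nearest 2510009E07Rik and Efr3a. The TCF/LEF summits lay close to the site centre. The median distance was 16 bp for TCF7L1, 21 bp for TCF7L2 and 23 bp for LEF1, and 28 bp for SOX2, over all pairs of kept site and library with a peak. At other sites these distances were 19, 27, 28 and 38 bp. Across the 581 kept sites, the median percentile of β-catenin and that of the other protein had a Spearman correlation of 0.80 for TCF7L1, 0.75 for LEF1, 0.66 for TCF7L2 and 0.31 for SOX2. These are descriptions across sites that share libraries, depth and base composition.

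High and low SOX2 were then compared for the 4 proteins that had not chosen the sites. The rank percentiles of naive ESC and SOX2-ON were set against those of CEpiLC and SOX2-OFF with limma over all sites with peaks in 3 or more of the 12 libraries, with Benjamini-Hochberg adjustment over those sites. SOX2 itself was tested at 560 kept sites of 7689 sites. It was higher at high SOX2 at 14 kept sites (2.5%), against 32.3% of all sites tested, and lower at 188 (33.6%), against 19.5%. The median difference, high minus low, was -13.6 percentile points at kept sites and 6.02 over all sites tested. It was -11.6 for naive ESC minus CEpiLC and -12.9 for SOX2-ON minus SOX2-OFF. A percentile is relative to the other peaks of its library and does not measure the amount bound. When complete deposited lists were ranked, 578 kept sites were tested. Of these, 4 were higher, against 27.9% of all 10423 sites tested, and 47 were lower, against 7.87%. The lower share at kept sites was thus close to that of all sites, unlike with the equal-length lists. The median difference was -0.786 at kept sites and 11.0 over all sites tested. On the log2(fold + 1) scale 43 of 560 kept sites were higher, against 35.8% of all sites tested, and 141 were lower, against 16.7%. Of the 188 sites lower in rank, 88 still met the requirement for SOX2 peaks in all 4 conditions.

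**Figure D5:**
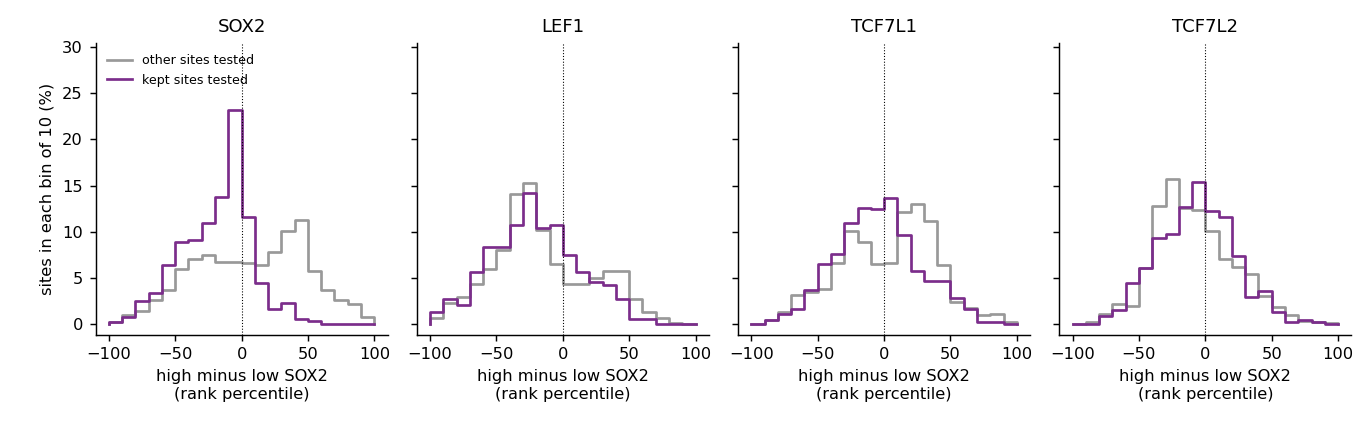
Distribution of the difference in rank percentile, high minus low SOX2 (x axis), over the kept sites tested and the other sites tested, in percent of sites per bin of 10 points, for SOX2, LEF1, TCF7L1 and TCF7L2. For SOX2 the kept sites centre at -13.6 and the other sites reach a second maximum on the positive side, whereas the LEF1 curves lie together.

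For LEF1, 17 of 550 kept sites tested were higher at high SOX2 (3.09%, against 9.63% of 3156 sites) and 147 were lower (26.7%, against 37.0%). The median difference was -23.1 points at kept sites and -22.5 over all sites tested. It was -40.4 within WT and -1.02 within the TetON line. Without naive ESC replicate 1, the library with few shared peaks, 37 of 550 kept sites were higher, against 12.1% of all sites tested. Lower were 118, against 32.0%. The median difference was then -14.0 points at kept sites and -20.5 over all sites tested. Under an exact permutation test within cell lines 0 of the 3156 sites passed after adjustment, so this test does not tell kept sites from others. At an unadjusted p under 0.05 it had 3 kept sites higher and 148 lower. The share of all sites at that level was not counted. With complete deposited lists 5 of 581 kept sites were higher, against 9.31% of 9333 sites tested, and 3 were lower, against 1.78%.

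For TCF7L1, 83 of 540 kept sites were higher at high SOX2 (15.4%, against 33.8% of 2509 sites) and 124 were lower (23.0%, against 21.8%). The median difference was -3.95 points at kept sites and 3.296 over all sites tested. This order depended on the filter. With peaks required in at least 6 of 12 libraries, the medians were -3.70 at kept sites and -8.59 over all sites tested. Of 461 kept sites, 71 were higher under that filter, against 202 of all 953 sites tested, and 111 were lower, against 307. Without SOX2-ON replicate 1 of TCF7L1, the medians were -0.148 and 5.67. Of 540 kept sites, 101 were then higher, against 35.0% of all sites tested, and 113 lower, against 19.9%. On the log2(fold + 1) scale 91 kept sites were higher and 52 lower, while 37.1% of all sites tested were higher and 20.4% lower. For TCF7L2, 33 of 449 kept sites were higher (7.35%, against 9.85% of 1624 sites) and 76 were lower (16.9%, against 21.0%), with median differences of -5.85 and -10.2. With complete deposited lists the TCF7L1 calls at kept sites fell to 2 higher and 0 lower, although 24.9% of all 10844 sites tested were higher and 1.29% lower. For TCF7L2 they fell to 4 higher and 0 lower, and few sites were called at all (0.452% of 6641 higher, 0.0753% lower). With these lists the median differences at kept sites were 4.41 and 2.26, against 21.9 and 2.64 over all sites tested. Only sites with a peak in 3 libraries entered, so the members tested are not all members.

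The 4 proteins shared part of their calls at kept sites. Among the kept sites tested, 26.7% were lower for LEF1, 23.0% for TCF7L1 and 16.9% for TCF7L2. Of the 188 sites lower for SOX2, 79 (42.0%) were also lower for LEF1, which is 53.7% of the LEF1 calls, and 71 (37.8%) were lower for TCF7L1, which is 57.3% of those calls. SOX2 and TCF7L2 shared 53 lower calls (28.2% and 69.7%). Higher were 2.5% of the kept sites tested for SOX2, 3.09% for LEF1, 15.4% for TCF7L1 and 7.35% for TCF7L2. Of the higher calls, TCF7L1 and TCF7L2 shared 20 (24.1% and 60.6%), LEF1 and TCF7L1 14 (82.4% and 16.9%), and SOX2 and LEF1 2 (14.3% and 11.8%). Shared calls over all sites tested were not counted, so the sharing is not shown to be particular to kept sites. Opposite calls were found for 4 pairs of proteins. SOX2 was higher and LEF1 lower at 2 kept sites, SOX2 lower and TCF7L1 higher at 1, and LEF1 lower at 1 site each where TCF7L1 or TCF7L2 was higher. SOX sequences were present at 34.0% of the kept sites lower for SOX2, at 35.7% of the 14 higher and at 48.3% of those not called. For TCF7L1 they were present at 50.6% of the sites higher, 25.0% of those lower and 45.6% of those not called, described without a test.

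The largest differences at single kept sites follow. A protein at 0 in a whole group entered the test only through the other group. Without that filter the named SOX2 and LEF1 calls still passed, whereas TCF7L1 and TCF7L2 could not be fitted, so their differences at such sites are given without a p. With complete deposited lists 5 of the 23 named calls passed, those of SOX2 at Ndufs4, Rgs12 and Fn1 and of TCF7L2 at Plcb4 and Gja1. No named call of LEF1 or TCF7L2 passed the exact permutation test, which no site tested passed for either protein. At a site in an intron 94727 bp from the start of Ndufs4 (chr13:114293054-114293983), SOX2 stood at 0 in all 6 high SOX2 libraries, at 89.3, 94.6 and 97.9 in CEpiLC and at 89.3, 84.3 and 98.6 in SOX2-OFF. The groups did not overlap, and the difference was -92.3 ± 4.32 (SE, limma adjusted p = 3.03e-07). LEF1 was also at 0 in all 6 high SOX2 libraries there (-98.5 ± 5.19, limma adjusted p = 2.08e-06), and its difference was -33.7 with complete deposited lists. β-catenin itself averaged 36.7 in naive ESC and 99.9 in CEpiLC, then 90.7 in SOX2-ON and 99.6 in SOX2-OFF.

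At a site 34736 bp upstream of Amph (chr13:18912520-18914105) SOX2, TCF7L1 and TCF7L2 were all at 0 in the 6 high SOX2 libraries. SOX2 stood at 76.1, 69.1 and 96.2 in CEpiLC and 97.1, 62.3 and 98.9 in SOX2-OFF (difference -83.3 ± 7.51, limma adjusted p = 1.03e-05). TCF7L1 stood at 53.9, 97.6 and 98.9 and at 89.5, 83.2 and 89.5 (difference -85.4 ± 7.70). With complete deposited lists the differences there were -45.5 for SOX2 and -20.6 for TCF7L1. β-catenin was nonetheless called in naive ESC, with a mean percentile of 19.7, against 79.1 in SOX2-ON, 99.3 in CEpiLC and 98.997 in SOX2-OFF. The site 21858 bp upstream of Actr2 was likewise lower at high SOX2 for TCF7L1, listed at 0 in all high SOX2 libraries but naive ESC replicate 2 (-84.3 ± 6.16, and -15.9 with complete deposited lists) and for TCF7L2 (-79.2 ± 6.195). SOX2 was also lower at the promoter of Rgs12, a regulator of G-protein signalling (-87.4 ± 4.21, limma adjusted p = 3.15e-07), LEF1 near Cdan1 and Vmn2r2 (-97.1 and -95.2), TCF7L1 near Sema6a (-78.1), and TCF7L2 near Zfp677 (-78.4). The LEF1 differences were -50.7 and -52.8 with complete deposited lists, and those near Sema6a and Zfp677 were -5.46 and -43.2.

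In the opposite direction, a site 126925 bp from Plcb4 (chr2:135614407-135615433) was higher at high SOX2 for all 4 proteins. TCF7L2 stood at 78.8, 89.9 and 90.6 in naive ESC, 78.7, 92.9 and 83.4 in SOX2-ON, and at 0 in all 6 low SOX2 libraries. The groups did not overlap, and the difference was 85.7 ± 6.19, and 80.8 with complete deposited lists. TCF7L1 differed there by 83.01 ± 10.3 (limma adjusted p = 0.000102), LEF1 by 64.4 ± 17.9 (limma adjusted p = 0.0152) and SOX2 by 11.5 ± 3.44 (limma adjusted p = 0.0189). With complete deposited lists the TCF7L1 and LEF1 differences were 34.1 and 35.6, and the LEF1 call was lost without replicate 2 or replicate 3. β-catenin averaged 98.7 in naive ESC and 99.5 in SOX2-ON, against 26.6 in CEpiLC and 44.0 in SOX2-OFF. TCF7L1 was also higher near Ptk2 (79.2), TCF7L2 near Gja1, a gap-junction gene, and at the promoter of Pdgfa, a growth factor gene (78.6 and 72.1), and LEF1 near Gm10203 and in a Frem2 intron (65.9 and 63.8). The Ptk2, Gm10203 and Frem2 differences were 18.7, 45.7 and 25.2 with complete deposited lists. The LEF1 call near Gm10203 was lost without replicate 2 and that in Frem2 without replicate 2 or replicate 3.

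The largest rise of SOX2 at high SOX2 was 7383 bp upstream of Socs3, a STAT3 feedback gene (chr11:117974981-117976933). SOX2 stood at 100.0, 99.2 and 99.1 in naive ESC, 93.5, 86.8 and 93.2 in CEpiLC, 99.2, 99.4 and 98.3 in SOX2-ON, and 0 in all 3 SOX2-OFF libraries. The difference was 53.6 ± 2.97 (limma adjusted p = 6.50e-07), and most of it came from SOX2-OFF. It was 29.2 with complete deposited lists and did not pass. SOX2 was also higher near Fn1 and Anxa3 (50.8 and 49.6). Both calls were lost under the exact permutation test and without single replicates, with 29.0 near Fn1 without replicate 2 and 29.1 near Anxa3 without replicate 1, and the Fn1 difference was 17.7 with complete deposited lists.

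At the kept sites of listed genes, SOX2 was lower at high SOX2 at 13 of 30 sites tested, higher at 0, and 17 did not pass, while 19.5% of all sites tested and 33.6% of kept sites were lower. These 13 were at Znrf3, Tnfrsf19, Sp5, Fzd2, Fzd10, Wnt5b, Nodal, Eomes, Klf5 and Lin28a, with 2 sites each for Znrf3, Sp5 and Nodal. At the Wnt5b promoter (chr6:119448231-119450551) SOX2 stood at 87.7, 71.8 and 78.0 in naive ESC and 98.8, 99.3 and 99.3 in CEpiLC, then 69.2, 61.8 and 54.2 in SOX2-ON and 98.8, 99.02 and 98.2 in SOX2-OFF. The low SOX2 libraries were all above the high SOX2 libraries (-28.5 ± 3.36, limma adjusted p = 7.00e-05). LEF1 was lower at 10 of 30 (37.0% of all sites tested), including Znrf3, Fzd7, Tcf7l2 and Klf5, and higher at 1, near Sall4 (9.63%). TCF7L1 was lower at 6 of 28 (21.8% of all sites tested) and higher at 3, near Prdm14, Id3 and Cdx2 (33.8%). With complete deposited lists 0 of 581 kept sites were lower for TCF7L1, against 1.29% of all sites tested. The 6 lower calls of TCF7L1 were thus lost. For LEF1, 3 of 581 kept sites were lower with those lists, against 1.78%.

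At the Cdx2 intron TCF7L1 stood at 90.6, 97.5 and 95.2 in naive ESC and 51.4, 70.0 and 0 in CEpiLC, then 91.4, 94.8 and 96.6 in SOX2-ON and 0, 55.0 and 75.4 in SOX2-OFF. All high SOX2 libraries lay above all low SOX2 libraries (52.4 ± 14.3, limma adjusted p = 0.0114). TCF7L2 there differed by 7.26 ± 1.89 (limma adjusted p = 0.0138), whereas SOX2 differed by -0.253 ± 2.14 (limma adjusted p = 0.924), which did not pass. The TCF7L2 call was lost under the exact permutation test, which no site tested passed for TCF7L2. At the Lef1 site TCF7L2 stayed between 87.6 and 99.3 in all 12 libraries (2.03 ± 1.78, limma adjusted p = 0.409). At the Sp5 promoter TCF7L1 was lower at high SOX2 (-22.8 ± 5.13, limma adjusted p = 0.00411), with the lowest values, 33.5, 59.7 and 57.9, in naive ESC. That call was lost with complete deposited lists, where 0 kept sites were lower for TCF7L1. At the upstream Nodal site SOX2 was at 81.2, 84.6 and 95.4 in SOX2-OFF and at most 42.8 in the other 9 libraries (-49.1 ± 7.71, limma adjusted p = 0.00054).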

How the data were processed

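ChIP-seq peak lists of 60 immunoprecipitated libraries were used, and 4 input samples were not analysed here. According to the study's methods, the authors trimmed the reads, aligned them to mm10 with BWA in an nf-core pipeline and called narrow peaks for each library with MACS at a q-value below 0.05, and replicates were not pooled. Which input was paired with which library is not given in the sources used here. The labels give MACS2. The deposited fold is the ratio of summit signal over local background that the peak caller computed for the authors. Peaks also carry a −log10 p-value and a −log10 q-value at the summit, as deposited. The lists hold no read counts, so read depth is unknown and no interval for it could be given.

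Deposited folds were used to rank peaks. Lists of a protein were shortened to its shortest list, at most 20000 peaks, and the percentile of the strongest peak overlapping a site by 1 bp was its value. Groups were compared with limma 3.58.1 in R 4.3.3 (trend and robust empirical Bayes), over sites with a peak in at least 3 of 12 libraries, at an adjusted p of 0.05. The p-values measure the spread between biological replicates from separate experiments. Sequences came from GRCm38.p6 (RefSeq) and gene models from GENCODE M21, read with pysam 0.24.0 and pandas 2.3.3. The kept sites and the gene lists were chosen with earlier results of these data known.

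Sites were named by rule: the 12 kept sites with the highest lowest percentile, up to 2 per gene list by median percentile, the 3 largest called differences per protein and direction, and 3 sites on either side of the rule's edge. The Axin2 promoter site, and the sites that lists or counts name beyond these, were chosen after their values were seen. Some sites that the rule names are not reported here. Alternatives were other rankings, list lengths, overlap rules, sequence windows and filters, another value scale, an exact permutation test, a replicate block and leaving out each replicate.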

Additional observations from a re-analysis of the deposited data

Results flagged for a closer look

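At 5 kept sites that are named here, one protein moved in opposite directions in the 2 cell lines, with no overlap between the 3 libraries on either side. The difference between the cell lines was not tested. All named sites were searched for this pattern, protein by protein. Its share among all kept sites was not counted, so nothing is read from the number of cases. LEF1 at the Epha1 site was lower in naive ESC than in CEpiLC by -63.9 percentile points but higher in SOX2-ON than in SOX2-OFF by 44.5. LEF1 at the site upstream of Sp5 showed the same, with -65.8 and 8.52. At both of these sites naive ESC replicates 1 and 3 of LEF1 were at 0, and replicate 2 stood at 71.7 near Epha1 and at 96.96 near Sp5, against 97.03 for the lowest CEpiLC library at the Sp5 site. SOX2 at Id3 was higher in naive ESC by 5.91 and lower in SOX2-ON by -40.2. There the SOX2-ON libraries stood at 89.5, 0 and 76.7, against 94.8 to 96.9 in SOX2-OFF. TCF7L1 was higher in naive ESC than in CEpiLC and lower in SOX2-ON than in SOX2-OFF at the sites nearest Nkain2 (57.2 and -53.8) and Mgea5 (55.5 and -40.6), both at the edge of the rule.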

How the results depend on the processing

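The number of kept sites was 316 with 2000 peaks per library, 332 when 3 of 3 libraries were needed, 3783 with all deposited peaks, 385 to 409 without one replicate, and 547 without SOX2-OFF replicate 2, an alternative chosen after seeing the data. The promoter share was 19.8% within 2500 bp and 7.56 to 9.78% without one replicate. The TCF share was 57.5% within 50 bp, 74.9% within 250 bp and 69.1 to 71.3% without one replicate. Shares of kept sites bound in all 4 conditions are given here without those of other sites. With all deposited peaks these shares of kept sites were 81.6% (SOX2), 77.8% (LEF1), 93.6% (TCF7L1) and 50.4% (TCF7L2). Ranked by −log10 p-value they were 44.9% for TCF7L1 and 21.3% for TCF7L2. Without one replicate, when 2 of 2 libraries were needed, they ran from 39.8 to 45.3% (SOX2), 1.72 to 11.2% (LEF1), 17.04 to 32.9% (TCF7L1) and 9.29 to 12.4% (TCF7L2). For LEF1 the share was 1.72% without replicate 2 or replicate 3. There it cannot exceed 3.61%, the share of kept sites with a peak in naive ESC replicate 1. Without replicate 1 it was 11.2%, and the part of each condition in this was not tested.

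Calls at kept sites are given as higher and lower at high SOX2. In the order SOX2, LEF1, TCF7L1, TCF7L2, all deposited peaks gave 4 and 47, 5 and 3, 2 and 0, and 4 and 0. The exact permutation test within cell lines gave 7 and 110, 0 and 0, 26 and 47, and 0 and 0. Over all sites tested it gave 591 and 461 of 7689 for SOX2 and 103 and 154 of 2509 for TCF7L1. For LEF1 and TCF7L2 it gave 0 of 3156 and 0 of 1624. At an unadjusted p under 0.05, LEF1 had 3 and 148 in that permutation test, and TCF7L2 had 22 and 76. In the fit on all deposited peaks TCF7L1 had 5 and 0 at that level, and TCF7L2 had 38 and 26. Unadjusted counts were made at kept sites only, so they do not tell kept sites from other sites. On log2(fold + 1) SOX2 had 43 higher and TCF7L1 52 lower. With peaks in at least 6 of 12 libraries LEF1 had 10 of 429 kept sites higher, against 44 of all 941 sites tested. TCF7L2 had 19 of 279 higher, against 43 of 584. Without a filter LEF1 had 5 and 94, against 140 and 514 of all 12607 sites, and TCF7L1 and TCF7L2 could not be fitted. Without one replicate, SOX2 ran from 9 to 17 higher and 108 to 133 lower, LEF1 from 6 to 20 and 69 to 168, TCF7L1 from 37 to 72 and 59 to 157, and TCF7L2 from 20 to 45 and 49 to 68. In the same order, these fits called 39.7 to 43.9%, 31.2 to 41.6%, 36.1 to 54.2% and 25.1 to 30.5% of all sites tested, both directions together. Split by direction, SOX2 had 2027 to 2519 higher and 995 to 1290 lower among 7605 to 8246 sites tested. LEF1 had 222 to 472 and 850 to 1080 among 3127 to 4007. TCF7L1 had 639 to 1018 and 301 to 668 among 2601 to 3113. TCF7L2 had 121 to 295 and 300 to 327 among 1736 to 2030. Leaving out LEF1 naive ESC replicate 1, chosen after seeing the data, gave 37 higher. Leaving out SOX2-ON replicate 1 of TCF7L1, chosen likewise, gave 101 and 113. The causes were not tested. Of 229 refits of the 23 named calls, 188 stayed past the threshold, 41 did not and 0 reversed. In the permutation test 9 of the 23 passed, and with all deposited peaks 5 did.

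Replicate numbers were shared by the groups, but libraries of the same number did not deviate together in every pair. The correlation of their deviations from the group means ran from 0.0037 to 0.072 for SOX2, -0.057 to 0.123 for LEF1, -0.044 to 0.246 for TCF7L1 and 0.072 to 0.273 for TCF7L2, so the numbers were not taken as pairs. With the replicate number as a block the calls were 14 and 181, 15 and 148, 84 and 128, and 32 and 71. The block fits called 51%, 45.4%, 56% and 29.3% of all sites tested, both directions together. Split by direction, these were 2456 and 1464 of 7689, 295 and 1139 of 3156, 838 and 566 of 2509, and 153 and 323 of 1624.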
